A study of Mus musculus with 15 samples.

Results

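A set of 10 TGF-beta family genes, Tgfb1, Tgfb2, Tgfb3, Inhba, Gdf15, Bmp4, Ltbp1, Tgfbr1, Tgfbr2 and Smad7, were followed across naïve mouse brain and 4 syngeneic glioblastoma (GBM) models. They were chosen by name as ligands, receptors and regulators of the family, and all were among the 46679 genes measured. RNA was sequenced from tumors taken when the mice reached the humane endpoint and from brain without tumor, with 3 C57BL/6 mice per group and 15 samples in all. Tumor cells were placed in the brain of mice aged 6 to 8 weeks, with 500000 cells for Mut3 and 100000 for each other line. CT2A and GL261 are lines induced with the chemical carcinogen methylcholanthrene, and 005 and Mut3 came from tumors of genetically altered mice, 005 with activated H-Ras and AKT and Mut3 with NF1 and p53 inactivated. All 4 lines carried GFP and firefly luciferase from a retroviral vector, which naïve brain lacks. Each model is a single line, so the 3 mice of a group are replicates of that line and not of its way of origin. The labels do not say whether naïve mice underwent surgery.

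TGF-beta ligands are secreted dimers that bring together a type II and a type I receptor kinase, and the type I receptor then phosphorylates SMAD proteins that act on genes in the nucleus. TGF-beta itself is secreted in a latent complex held in the matrix by LTBP proteins, whereas activins and BMPs are held in check by soluble antagonists. In glioblastoma the pathway is best known for restraining immune cells and for maintaining stem-like and mesenchymal states. In bulk tissue, fewer cells of a type and less RNA per cell cannot be told apart.

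Inhba and Smad7 separated single models from the rest. Inhba, which encodes the activin A subunit, was about 19-fold higher in CT2A than in naïve brain and was higher there than in every other tumor. Smad7, the inhibitory SMAD, was about 7-fold lower in Mut3 than in naïve brain and was lower than in every other tumor. Tgfbr2, the type II receptor, rose in CT2A, GL261 and 005 and not in Mut3, and Ltbp1 rose in CT2A and 005. On log2(TPM + 1), a scale per gene length, none of these Tgfbr2 and Ltbp1 differences from naïve brain was called. Tgfb1 and Tgfb2 passed the test in no comparison.

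The 250 bases before the annotated start of 3 of these genes are shown, since the members differ in which tumors carried their high levels. They come from the RefSeq promoter table (GRCm38.p6), and read 5′ to 3′ on the gene's strand. Capitals mark letters that matched a searched motif. The stretch before Inhba lies at chr13:16011601-16011850 (plus strand), Ltbp1 at chr17:75005279-75005528 (plus strand, the first of 2 starts in the table) and Tgfbr2 at chr9:116175364-116175613 (minus strand).
Inhba: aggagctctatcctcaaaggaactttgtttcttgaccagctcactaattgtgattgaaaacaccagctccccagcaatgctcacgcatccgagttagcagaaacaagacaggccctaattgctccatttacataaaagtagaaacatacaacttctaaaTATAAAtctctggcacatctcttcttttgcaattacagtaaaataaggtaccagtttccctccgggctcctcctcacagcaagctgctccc
Ltbp1: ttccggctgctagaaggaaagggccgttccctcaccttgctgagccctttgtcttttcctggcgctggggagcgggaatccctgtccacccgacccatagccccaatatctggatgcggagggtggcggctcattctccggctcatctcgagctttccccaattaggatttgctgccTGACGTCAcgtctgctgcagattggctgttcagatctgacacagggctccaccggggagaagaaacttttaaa
Tgfbr2: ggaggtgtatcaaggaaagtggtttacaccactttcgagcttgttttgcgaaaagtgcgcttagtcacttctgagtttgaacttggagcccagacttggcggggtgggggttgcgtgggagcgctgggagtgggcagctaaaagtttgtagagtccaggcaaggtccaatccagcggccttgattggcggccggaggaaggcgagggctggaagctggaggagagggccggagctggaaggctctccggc
The motifs searched, on both strands, were the AP-1 site TGANTCA, the cAMP response element TGACGTCA, the SMAD box GTCTAGAC, the CAGA letters CAGACA, the GC box GGGCGG, the TATA box TATAAA and the E-box CACGTG. The Inhba stretch held a TATA box, which 12.4% of 32851 promoters of this length hold. The Ltbp1 stretch held a cAMP response element, which 1.55% of them hold. The Tgfbr2 stretch held none of the 7 motifs, and the SMAD box was in 0.167% of all promoters. GC content was 43.2% before Inhba, 56.8% before Ltbp1 and 58.4% before Tgfbr2. Gene-level values do not say which start was used, and a match is a run of letters, not a bound site.

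Total counts ranged from 3105119 to 13130158 per sample, and 3 counts corresponded to 0.214 to 0.811 CPM (CPM is a count scaled to the TMM-normalized library size). This floor covers counting error only. The members were thinly covered, from 7 to 45 counts per sample for Tgfb1, 0 to 24 for Gdf15 and 1 to 34 for Bmp4. The naïve libraries held the neuron markers of brain tissue at a summed 1360 to 1558 TPM (TPM is scaled to gene length and to a fixed total per sample), against 8.28 to 30.9 TPM in Mut3. Sample 005 replicate 3 stood apart from its group, with 991.5 TPM of the neuron list against 40.9 and 101.5 TPM in the other 005 tumors. Naïve replicate 2 held 962.6 TPM of the oligodendrocyte list against 196 and 245 TPM in the other naïve brains. The mitochondrial share of counts was 3.48% to 11.3% in 11 tumors, 17.8% in 005 replicate 3 and 14.97% to 24.0% in naïve samples. A fit without mitochondrial genome genes moved the median log2 fold change of all tested genes in CT2A from −0.04 to 0.14. In that fit the Bmp4 call in CT2A and the Skil and Id2 calls in Mut3 were lost. Any other part of this difference in the changes from naïve brain was not tested. Calls named below that were lost without naïve replicate 2 or 005 replicate 3 are given as such.

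Differences were called at an adjusted p under 0.05 over all 17481 tested genes, with a log2 fold change of at least 1 in either direction (edgeR quasi-likelihood test on all 15 samples, Benjamini-Hochberg adjustment). All 10 members passed the filter on low counts. Against naïve brain, CT2A had 6 members higher and 1 lower, beside 19% of all tested genes higher and 20.2% lower. GL261 had 2 members higher and 0 lower, beside 14.6% and 7.77% of all genes, and 005 had 2 higher and 0 lower, beside 11.6% and 1.05%. In GL261, 5 members had an unadjusted p under 0.05 and DESeq2 called 3, and in 005 these numbers were 4 and 3. Over all 17481 genes, DESeq2 called 2894 higher and 2273 lower in GL261, and 2538 higher and 837 lower in 005. No share of all genes was counted for the unadjusted p. Mut3 had 3 members higher and 2 lower, beside 17.9% and 19.8%. The 4 comparisons share the naïve samples. With Gdf15, which was at 0 in naïve brain, set at its bound, the median log2 fold change of the members was 0.79 for CT2A, 0.28 for GL261, 0.10 for 005 and −0.01 for Mut3. The median of all tested genes was −0.04, −0.08, 0.01 and 0.11 in this order.

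**Figure D1:**
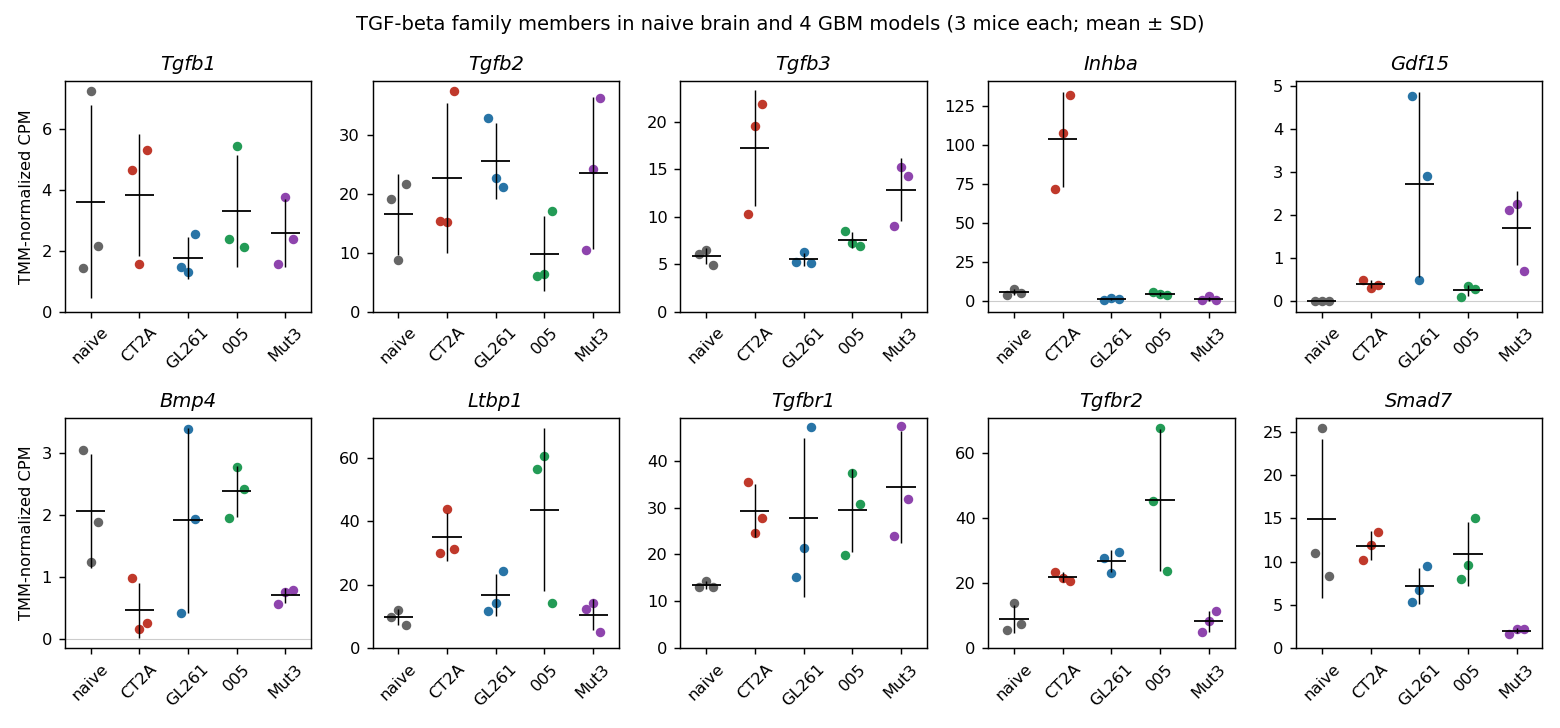
TMM-normalized CPM of the 10 members in each mouse (points) by group, with the group mean (horizontal line) and SD (vertical line), n = 3 per group; each panel has its own linear axis. Inhba stood at 71.6 to 133 CPM in CT2A and at 7.47 CPM or less in every other sample, and Smad7 at 1.68 to 2.26 CPM in Mut3 and at 5.39 CPM or more elsewhere.

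The scale matters for the comparisons with naïve brain. The ratio of CPM to TPM, which is 1 factor per sample, was 0.58 to 1.14 log2 units above the naïve mean in all tumors except 005 replicate 3, at 0.09. Protein-coding genes held 44.5% to 45.3% of the TPM in naïve brain, 34.1% to 36.4% in CT2A, GL261 and Mut3 and 36.5% to 43.2% in 005. On log2(TPM + 1), the median of the 13471 genes tested was shifted by −0.57 for CT2A, −0.53 for GL261, −0.35 for 005 and −0.40 for Mut3. Of the 30 called member differences in the 10 comparisons, 21 were lost on at least 1 TPM scale, and none changed sign on any scale. Levels of different genes are compared in TPM, and tests between groups rest on counts unless TPM is named. Summed marker levels are in TPM and carry this shift between naïve brain and tumors.

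Among the TGF-beta ligands, Tgfb1 (chr7:25687002-25705077, GRCm38, plus strand) did not separate the groups. The gene encodes TGF-beta1, the isoform most widely made by immune cells. Its level was 1.43, 7.22 and 2.16 CPM in naïve brain, 4.64, 1.55 and 5.30 in CT2A, 1.45, 1.29 and 2.55 in GL261, 2.37, 5.43 and 2.14 in 005, and 1.57, 3.77 and 2.37 in Mut3. All groups overlapped, and a single naïve brain, replicate 2, had the highest value. The F test across the 5 groups gave an adjusted p of 0.58 (edgeR). At these counts the 95% interval of the CT2A difference from naïve brain ran from −1.34 to 1.54 log2 units, so changes within that range were not excluded. Without naïve replicate 2 the CT2A value moved from 0.10 to 1.31 (adjusted p = 0.174).

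Tgfb2 (chr1:186622792-186705989, minus strand), an isoform made by neural cells and glioma cells, was also not called anywhere. It stood at 8.72 to 21.6 CPM in naïve brain, 15.2 to 37.5 in CT2A, 21.1 to 33.0 in GL261, 6.08 to 17.2 in 005 and 10.4 to 36.2 in Mut3. The lowest pair of values came from 005 replicates 1 and 2, at 6.08 and 6.40 CPM, while replicate 3 was at 17.2. GL261 and 005 did not overlap, but the adjusted p of that difference was 0.255, and that of the 5 groups was 0.212 (edgeR).

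Tgfb3 (chr12:86056745-86079041, minus strand) was the TGF-beta isoform that rose, in CT2A and in Mut3. It stood at 6.12, 6.48 and 4.87 CPM in naïve brain, 10.3, 19.6 and 21.8 in CT2A, and 9.06, 15.2 and 14.2 in Mut3. GL261, at 5.18, 6.30 and 5.10 CPM, lay in the naïve range, and 005, at 8.45, 7.24 and 6.91, lay just above it. The log2 fold change from naïve brain was 1.56 ± 0.36 (SE) in CT2A (adjusted p = 0.00456, edgeR) and 1.14 ± 0.35 in Mut3 (adjusted p = 0.0197). CT2A exceeded GL261 by 1.64 ± 0.35 (adjusted p = 0.0113), and GL261 was below Mut3, at −1.21 ± 0.35 (adjusted p = 0.0283). CT2A and Mut3 overlapped and did not pass the test against each other (adjusted p = 0.446). In TPM the naïve samples, at 0.596 to 1.26, overlapped both CT2A, at 0.897 to 1.55, and Mut3, at 0.763 to 1.31. On log2(TPM + 1) the CT2A difference was 0.26, or 0.83 relative to the median of all genes (limma adjusted p = 0.273), so the call was lost. The Mut3 call was lost on the TPM scales too, and without naïve replicate 3 or Mut3 replicate 2 or 3. The difference between CT2A and GL261 was lost without CT2A replicate 2 or 3 or GL261 replicate 1 or 3, and that between GL261 and Mut3 with 6 of the 15 samples left out, each of the GL261 tumors among them.

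Inhba (chr13:16011851-16031621, plus strand) had the largest difference of the members with a measurable level in naïve brain. Its product pairs with itself to form activin A, a ligand that signals through SMAD2 and SMAD3 like TGF-beta. It stood at 3.67, 7.47 and 5.14 CPM in naïve brain and at 71.6, 108 and 133 in CT2A. It stood at 0.207, 1.94 and 1.33 CPM in GL261, 5.77, 4.10 and 3.42 in 005, and 0.336, 2.89 and 0.264 in Mut3. The 3 CT2A tumors lay far above all other samples, 005 overlapped naïve brain, and GL261 and Mut3 lay below it. The log2 fold change from naïve brain was 4.26 ± 0.73 in CT2A (19.2-fold, adjusted p = 0.00100, edgeR). CT2A exceeded GL261 by 6.42 ± 0.82 (adjusted p = 0.000376), 005 by 4.55 ± 0.72 (adjusted p = 0.00394) and Mut3 by 6.52 ± 0.81 (adjusted p = 0.000214). These 4 calls held in all 10 alternative settings that gave a value and with each of the 15 samples left out.

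In the other direction, Inhba was 2.26 ± 0.74 log2 units lower in Mut3 than in naïve brain (log2 fold change −2.26, adjusted p = 0.0250, edgeR). Without naïve replicate 2 the value was −1.79 (adjusted p = 0.109), and the call was also lost without Mut3 replicate 1 or 3. The change in GL261 was −2.16 ± 0.75 (adjusted p = 0.0501), just outside the threshold, and it was called in 7 of the 10 alternative settings. These low levels rest on few reads, as GL261 replicate 1 held 1 count. In TPM, Inhba was at 15.4 to 23.2 in CT2A, and these were the 3 values of the 150 member values that reached 5 TPM.

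Gdf15 (ENSMUSG00000038508), a stress-induced distant member of the family that signals through the GFRAL receptor, had a count of 0 in all 3 naïve brains. It stood at 4.77, 0.485 and 2.91 CPM in GL261 and 2.13, 2.26 and 0.704 in Mut3. CT2A, at 0.488, 0.310 and 0.388 CPM, and 005, at 0.103, 0.362 and 0.285, stood at or under the naïve floor of 3 counts, a mean of 0.724 CPM. Against that floor, Gdf15 was at least 3.76-fold higher in GL261 (adjusted p = 0.00563, edgeR) and at least 2.35-fold higher in Mut3 (adjusted p = 0.00491). The GL261 mean leans on replicate 1, without which the bound was 2.35-fold, and replicate 2 lay at its own floor. For Mut3 the bound was 2.05-fold without replicate 1 and 1.96-fold without replicate 2. Mut3 replicate 3, at 0.704 CPM, lay under the naïve floor. Both calls held with each sample left out, and the Mut3 call was lost on log2(TPM + 1). The call in CT2A (adjusted p = 0.0468) rested on 2.24 to 3.90 estimated counts per sample and was lost in 7 of 9 alternative settings and with 12 of the 15 samples left out, naïve replicate 2 and 005 replicate 3 included. Between tumors, 005 was below Mut3 by a log2 fold change of −2.68 ± 0.89 (adjusted p = 0.0490), and this call was lost in 6 of 9 settings and with 13 samples left out, 005 replicate 3 included. The gene of its receptor, Gfral, did not pass the filter on low counts.

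Bmp4 (chr14:46383520-46390669, minus strand), a BMP that drives astrocytic differentiation, was lowest in CT2A and Mut3. It stood at 3.06, 1.25 and 1.89 CPM in naïve brain, 0.977, 0.155 and 0.258 in CT2A, 0.415, 3.39 and 1.94 in GL261, 1.96, 2.78 and 2.42 in 005, and 0.559, 0.755 and 0.792 in Mut3. Neither CT2A nor Mut3 overlapped naïve brain, and GL261 spanned both the low and the high values. The CT2A change was −2.10 ± 0.79 (adjusted p = 0.0460, edgeR), and it was lost in 4 of 7 alternative settings and with 11 of the 15 samples left out, naïve replicate 2 and each of the other naïve brains included. The Mut3 difference did not pass the test (adjusted p = 0.118).

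Ltbp1 (chr17:75005568-75392512, plus strand), whose product binds latent TGF-beta and anchors it in the matrix, was high in CT2A and in 2 of the 3 005 tumors. It stood at 9.996, 12.2 and 7.30 CPM in naïve brain, 30.0, 43.8 and 31.1 in CT2A, 11.8, 14.2 and 24.3 in GL261, 56.3, 60.6 and 14.2 in 005, and 12.4, 14.2 and 5.10 in Mut3. Sample 005 replicate 3, the one with high neuron markers, lay in the GL261 and Mut3 range. The log2 fold change from naïve brain was 1.83 ± 0.52 in CT2A (adjusted p = 0.0134, edgeR) and 2.15 ± 0.53 in 005 (adjusted p = 0.0158). Without 005 replicate 3, the 005 value was 2.50 (adjusted p = 0.000601). The 005 call was lost without 005 replicate 1 or 2 and without naïve replicate 1 or 3, and in a fit of only the samples compared (adjusted p = 0.0870). Both calls were lost on all 3 TPM scales. On log2(TPM + 1) the CT2A difference was 0.53 (limma adjusted p = 0.194) and the 005 difference 0.89 (adjusted p = 0.0538), or 1.10 and 1.25 relative to the median of all genes. CT2A exceeded Mut3 by 1.73 ± 0.51 (adjusted p = 0.0386), and 005 exceeded Mut3 by 2.05 ± 0.52 (adjusted p = 0.0144), with an overlap from replicate 3. The CT2A difference from Mut3 was lost with 8 of the 15 samples left out, each of the CT2A and Mut3 tumors among them, on all 3 TPM scales and with library size in place of TMM. The 005 difference from Mut3 was lost without Mut3 replicate 3 and in a fit of only the samples compared.

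Tgfbr1 (chr4:47353222-47414931, plus strand), the type I receptor kinase, lay higher in all tumors than in naïve brain in CPM. It stood at 13.06, 14.4 and 12.98 CPM in naïve brain, 35.5, 24.5 and 27.8 in CT2A, 15.1, 21.3 and 47.1 in GL261, 19.98, 37.4 and 30.8 in 005, and 23.9, 47.3 and 31.8 in Mut3. No tumor fell as low as the naïve samples, and the tumors overlapped each other. The log2 fold change was 1.12 ± 0.41 in CT2A (adjusted p = 0.0407, edgeR) and 1.35 ± 0.41 in Mut3 (adjusted p = 0.0182). GL261, at 1.05 ± 0.41 (adjusted p = 0.0737), and 005, at 1.12 ± 0.41 (adjusted p = 0.0839), did not pass the test. In TPM this separation was absent: naïve brain was at 0.605 to 1.09 TPM and CT2A at 0.664 to 1.19 TPM. On log2(TPM + 1) the CT2A difference was 0.06, or 0.63 relative to the median of all genes (limma adjusted p = 0.884), and the Mut3 difference was 0.24, or 0.64 relative to it (adjusted p = 0.511). The CT2A call was also lost without naïve replicate 1 or 3 or CT2A replicate 1 or 3, and the Mut3 call without naïve replicate 1 or 3 or Mut3 replicate 2. The F test of the 5 groups did not pass (adjusted p = 0.0917, edgeR).

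Tgfbr2 (chr9:116084293-116175360, minus strand), the type II receptor that binds the ligand, differed among the groups (F test, adjusted p = 0.00152, edgeR). It stood at 5.51, 13.9 and 7.57 CPM in naïve brain, 23.4, 21.7 and 20.7 in CT2A, 27.8, 23.3 and 29.6 in GL261, 45.3, 67.7 and 23.9 in 005, and 4.92, 8.56 and 11.3 in Mut3. CT2A, GL261 and 005 lay above every naïve and Mut3 sample, and Mut3 overlapped naïve brain. CT2A exceeded naïve brain by 1.29 ± 0.43 log2 units (adjusted p = 0.0275), GL261 did so by 1.58 ± 0.43 (adjusted p = 0.0194) and 005 by 2.34 ± 0.44 (adjusted p = 0.00382). Against Mut3 the value was 1.40 ± 0.42 for CT2A (adjusted p = 0.0416), 1.70 ± 0.43 for GL261 (adjusted p = 0.0161) and 2.46 ± 0.44 for 005 (adjusted p = 0.00260). The 005 difference from Mut3 held in all 11 alternative settings and with each sample left out. The CT2A and GL261 differences from naïve brain were lost in TPM, where naïve replicate 2 reached 1.62 TPM, and without naïve replicate 1 or 3. The CT2A call was also lost without any single CT2A tumor and with library size in place of TMM, and the GL261 call without GL261 replicate 3. The 005 difference from naïve brain was lost in a fit of only the samples compared (adjusted p = 0.0646) and fell under the fold threshold on log2(TPM + 1), at 0.94. Against Mut3, the CT2A call was lost with 9 of the 15 samples left out and on all 3 TPM scales, and the GL261 call without GL261 replicate 3 or Mut3 replicate 1 and on log2(TPM + 1). Without naïve replicate 2 the CT2A and GL261 differences from naïve brain were 1.95 and 2.18, and the 005 value was 2.93. Without 005 replicate 3 the 005 value was 2.58 (adjusted p = 0.000368, edgeR).

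The level of Tgfbr2 is set beside markers of leukocytes, the white blood cells. The summed level of 5 leukocyte markers, all 5 above 0 in every sample, was 13.1 to 19.97 TPM in naïve brain, 15.4 to 16.6 in CT2A, 27.5 to 31.4 in GL261, 20.4 to 79.3 in 005 and 4.50 to 6.07 in Mut3. The 8 monocyte and macrophage markers, at least 7 of them above 0 in every sample, summed to 54.3 to 93.7 TPM in naïve brain, 168 to 232.6 in CT2A, 249.9 to 470.4 in GL261, 426 to 2450 in 005 and 53.6 to 206.6 in Mut3. The 6 microglia markers summed to 27.7 to 45.4 TPM in naïve brain, 12.1 to 16.3 in CT2A and 20.8 to 34.9 in GL261. They summed to 19.8 to 50.4 TPM in 005 and 5.77 to 8.29 in Mut3. Mut3 had the lowest mean Tgfbr2 level and the lowest leukocyte sums, and 005 replicate 2 had the highest of both. In CT2A, Tgfbr2 was called higher on counts but lay within the naïve range in TPM, at 0.862 to 1.20 against 0.448 to 1.62. Of the marker sums in CT2A, also in TPM, those of leukocytes lay within the naïve range and those of microglia below it. The monocyte and macrophage sums lay above it. So did the sums of 7 T cell markers, at 23.0 to 42.6 TPM against 4.67 to 12.3 in naïve brain. The part of these cells in the Tgfbr2 differences was not tested.

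**Figure D2:**
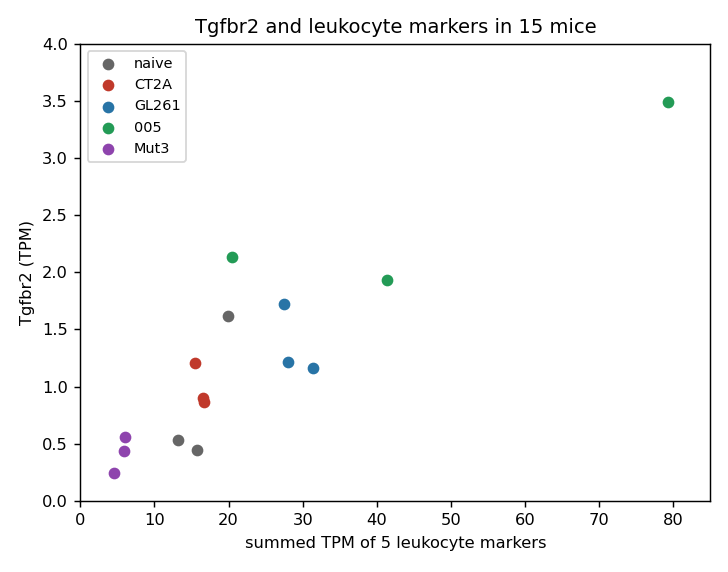
Tgfbr2 (TPM, vertical axis) against the summed TPM of 5 leukocyte markers (horizontal axis), 1 point per mouse, colored by group; both axes are linear and start at 0. Mut3 lies at the lower left, with leukocyte sums of 4.50 to 6.07 TPM, and 005 replicate 2 at the upper right, with 79.3 TPM and a Tgfbr2 level of 3.50 TPM.

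Smad7 (ENSMUSG00000025880), which blocks type I receptors and is itself induced by TGF-beta, was low in Mut3. It stood at 11.0, 25.4 and 8.38 CPM in naïve brain, 10.1, 11.95 and 13.4 in CT2A, 5.39, 6.79 and 9.46 in GL261, 8.03, 9.66 and 15.02 in 005, and 1.68, 2.26 and 2.20 in Mut3. The 3 Mut3 tumors lay below all other samples, and the other 4 groups overlapped each other except for CT2A and GL261. The log2 fold change of Mut3 from naïve brain was −2.86 ± 0.46 (7.24-fold lower, adjusted p = 0.000576, edgeR). That call held in all 11 settings and with each sample left out, and without naïve replicate 2, the highest naïve value, it was −2.06. CT2A exceeded Mut3 by 2.52 ± 0.45 (adjusted p = 0.00231), GL261 by 1.81 ± 0.45 (adjusted p = 0.0144) and 005 by 2.41 ± 0.45 (adjusted p = 0.00326). GL261 was lower than naïve brain by a log2 fold change of −1.04 ± 0.43 that did not pass the test (adjusted p = 0.0849) but did without 005 replicate 3 (−1.12, adjusted p = 0.0479). The CT2A and GL261 differences from Mut3 were lost on all 3 TPM scales, where these groups were below 1 TPM. The 005 difference was lost on log2(TPM + 1), at 0.70 (limma adjusted p = 0.186), and the GL261 difference was also lost without GL261 replicate 3.

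**Figure D3:**
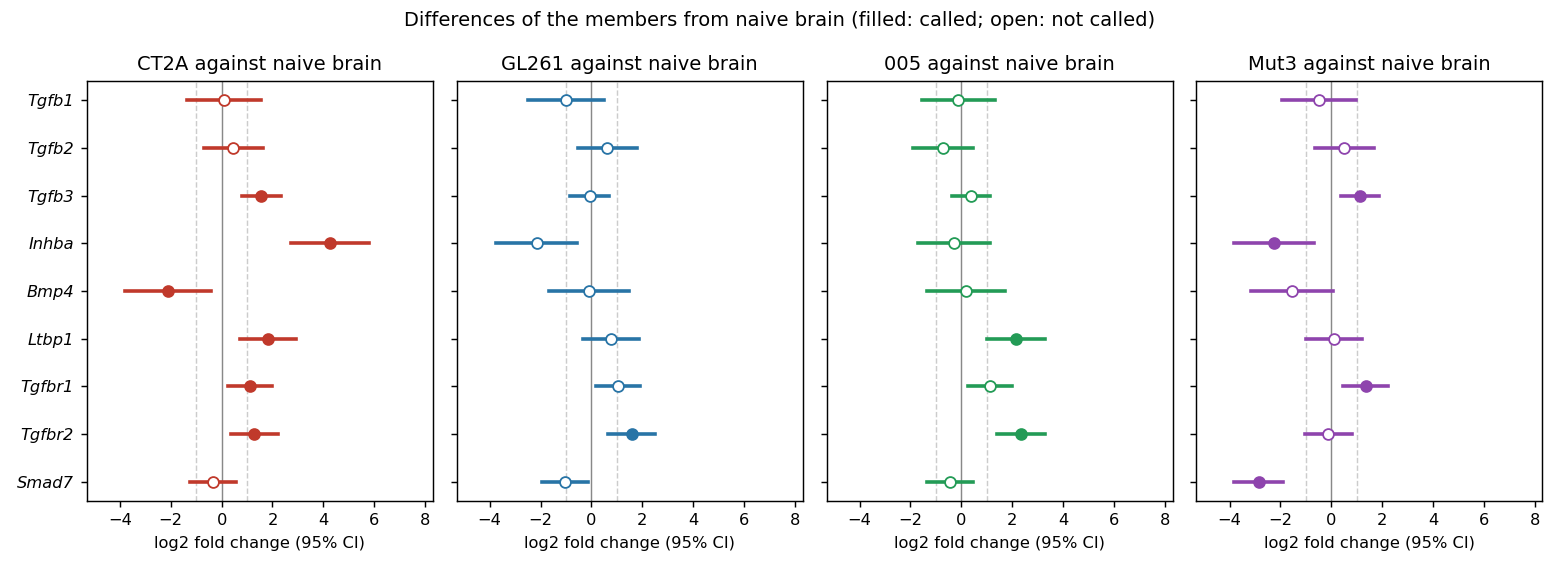
Log2 fold change of 9 members in each tumor against naïve brain (point) with its 95% confidence interval (line) from the edgeR fit; filled points were called and dashed lines mark a log2 fold change of 1 in either direction. Gdf15 is not drawn because its naïve count was 0; Inhba in CT2A lies farthest right at 4.26 and Smad7 in Mut3 farthest left at −2.86.

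Between tumors, 14 of 60 member differences were called. There were 2 between CT2A and GL261 (7.77% of all genes), 1 between CT2A and 005 (4.11%), 4 between CT2A and Mut3 (12.8%), 3 between GL261 and Mut3 (17.2%) and 4 between 005 and Mut3 (19.8%). Between GL261 and 005, 0 members were called by edgeR (2.62% of all genes), while 4 had an unadjusted p under 0.05 and DESeq2 called 1, Gdf15. For this pair the share of all genes is given for the edgeR calls only. An F test of any difference among the 5 groups passed for 6 of the 10 members, beside 52.1% of all genes: Tgfb3, Tgfbr2, Smad7, Inhba, Gdf15 and Ltbp1. Every call that involved Inhba between tumors was a CT2A call, and every Smad7 and Tgfbr2 call was a Mut3 call.

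Per gene length, the members also changed order within a group. In naïve brain Inhba was the highest member, at a mean of 2.15 ± 1.31 TPM (SD, n = 3), followed by Smad7 at 1.88 TPM and Ltbp1 at 1.46 TPM. This order rests on replicate 2. Without it Tgfb2 and Inhba were at 1.42 and 1.40 TPM, Ltbp1 at 1.08 and Smad7 at 0.948, and Inhba was the highest member in 1 of the 3 naïve brains. In CT2A Inhba was at 19.1 ± 3.90 TPM, above Ltbp1 at 2.46 TPM, and Bmp4 was lowest at 0.0633 TPM. Ltbp1 and Tgfbr2 were the 2 highest members in each 005 tumor, at means of 3.67 and 2.52 TPM. In GL261, Ltbp1, Tgfbr2, Gdf15 and Tgfb2 had means of 1.41, 1.36, 1.30 and 1.15 TPM, which lie within their spread, and a different member led in each tumor. In Mut3 the leading members were Tgfbr1, Tgfb3 and Tgfb2, at 1.13, 1.09 and 1.08 TPM, which lie within their spread.

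The wider pathway was read from 7 lists by role, with 111 genes in all. Of these, 88 passed the filter, 78 of them no member. Against naïve brain, 12 of the 78 were higher and 20 lower in CT2A, 12 and 7 in GL261, 10 and 1 in 005, and 10 and 25 in Mut3. The lower genes were 32.1% of the 78 in Mut3, beside 19.8% of all tested genes, and 25.6% in CT2A, beside 20.2%. The higher genes were 15.4% in CT2A and in GL261 and 12.8% in 005 and in Mut3. Of all tested genes, 19%, 14.6%, 11.6% and 17.9% were higher in CT2A, GL261, 005 and Mut3. The lower genes were 20.2%, 7.77%, 1.05% and 19.8% of all tested genes in this order. Percentages below are of the tested genes of each list. The 005 count depends on replicate 3: without it, 15 were higher and 15 lower. The shares of all tested genes above come from the fit with that sample, so they cannot be set beside these 2 counts. No test of a list against other genes was made.

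**Figure D4:**
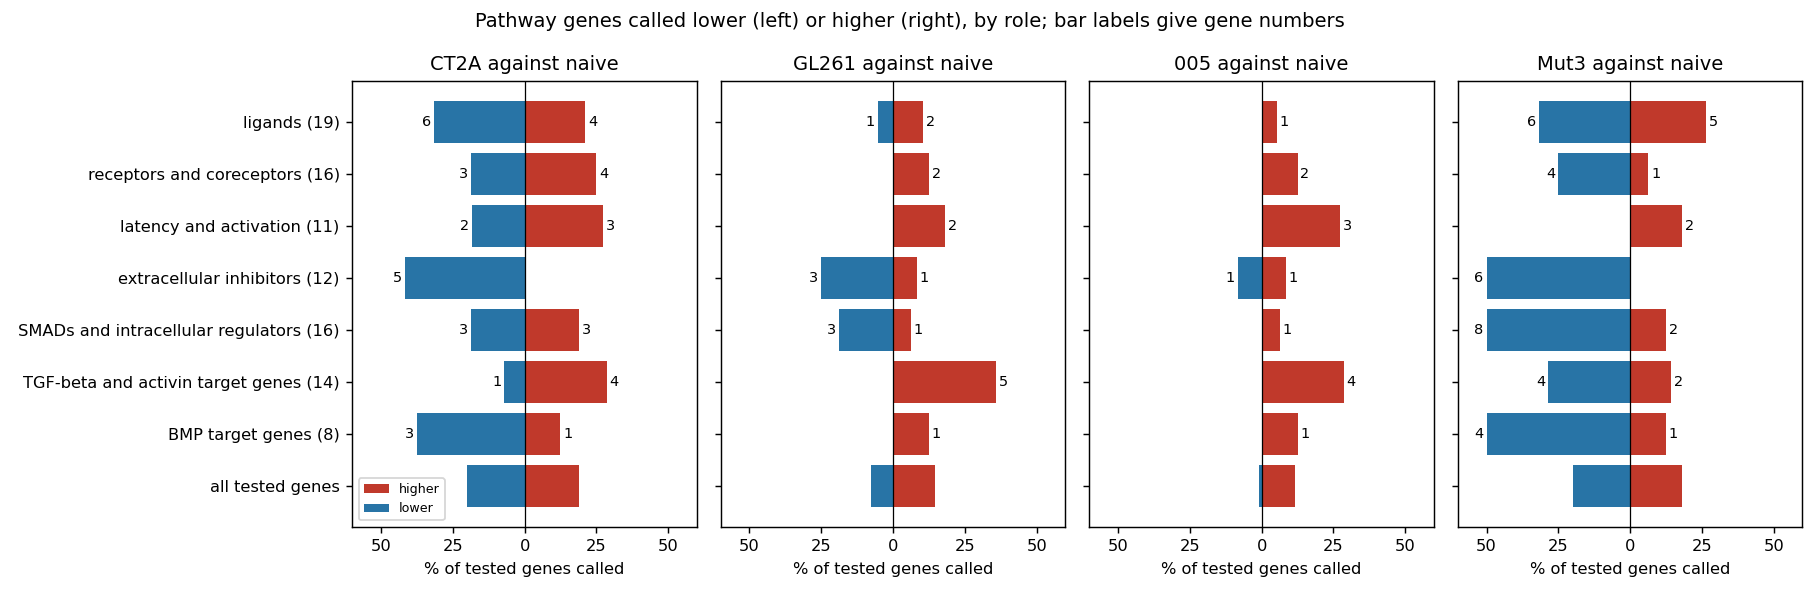
Percent of the tested genes of each role list called higher (red, right) or lower (blue, left) in each tumor against naïve brain, with gene numbers at the bars, the number tested in parentheses and all tested genes in the bottom row; members are included. The extracellular inhibitors were called lower in 5 of 12 genes in CT2A and 6 of 12 in Mut3, with 0 higher.

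The ligand list had 19 tested genes and also holds Bmp1, which encodes a protease. In CT2A 4 of them were higher (21.1%) and 6 lower (31.6%), and in Mut3 5 were higher (26.3%) and 6 lower (31.6%). Gdf10, a ligand related to Bmp3, stood at 5.22 CPM in naïve brain and fell to 1.06 in GL261 (log2 fold change −2.27 ± 0.66, adjusted p = 0.0247, edgeR). It was at 0.396 CPM in CT2A and 0.321 in Mut3, near the floor. In 005 its mean was 1.72 CPM, or 0.765 without replicate 3, and it was not called there. Bmp3 fell in CT2A by a log2 fold change of −2.79 ± 0.91 (adjusted p = 0.0249) and in Mut3 by −4.78 (adjusted p = 0.00257, edgeR). It went from 14.7 CPM in naïve brain to 2.08 in CT2A and to 0.532 in Mut3, near the floor. GL261 and 005 had means of 2.47 and 2.59 CPM but were not called. The CT2A call of Bmp3 was lost without naïve replicate 3 or CT2A replicate 2 or 3. Lefty1, an antagonist of Nodal, and Bmp5 rose in Mut3, with log2 fold changes of 2.87 ± 0.73 (adjusted p = 0.00653) and 2.77 ± 0.99 (adjusted p = 0.0376). Their naïve values lay near the floor, at 0.541 to 0.996 CPM for Lefty1 and 0 to 2.04 for Bmp5. The Gdf10 call in GL261 (adjusted p = 0.0645) and the Bmp5 call (adjusted p = 0.0650) were lost without naïve replicate 2. The median of the list was −0.12 in CT2A and 0.41 in Mut3.

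Among 16 receptor and coreceptor genes, 4 were higher and 3 lower in CT2A, and 2 were higher in GL261 and in 005. In Mut3, 1 was higher and 4 were lower. These were 25% and 18.8% in CT2A, beside 19% and 20.2% of all tested genes. In GL261 and in 005 they were 12.5%, beside 14.6% and 11.6%. In Mut3 they were 6.25% and 25%, beside 17.9% and 19.8%. Rgmb, a BMP coreceptor, rose from 3.73 CPM to 23.6 in CT2A (log2 fold change 2.66 ± 0.44, adjusted p = 0.000844, edgeR) and to 36.04 in GL261 (3.27 ± 0.45, adjusted p = 0.000412). Acvr1, a type I receptor of BMPs and activin, rose by 1.77 ± 0.29 in CT2A and 1.39 ± 0.28 in 005. Both Acvr1 calls were lost on all 3 TPM scales. Acvr1b and Acvr1c, the type I receptors used by activin and Nodal, were called lower in CT2A and Mut3. Acvr1b changed by −2.31 ± 0.59 in CT2A and −2.92 ± 0.60 in Mut3, and Acvr1c by −2.60 ± 0.92 and −4.50 ± 1.01. From naïve means of 12.9 and 42.2 CPM, they also stood lower in GL261, at 4.11 and 13.6, without a call. In 005 they stood at 6.31 and 13.5 CPM, or 3.59 and 3.65 without replicate 3, and were not called either. In CT2A, Acvr1c was at 16.7 CPM in replicate 1, the tumor with 200.5 TPM of neuron markers, and at 2.02 and 1.94 in the others. Its mean there was 6.90 CPM, or 1.98 without replicate 1. That call was lost without naïve replicate 2 (adjusted p = 0.0977) or 3, or CT2A replicate 2 or 3. The naïve Rgmb level was 2.48 CPM without replicate 2. The neuron markers fell from at least 1360 TPM to 41.9 to 200.5 in CT2A and 8.28 to 30.9 in Mut3. They stood at 131 to 308 TPM in GL261 and 40.9 to 991.5 in 005. Their part in the receptor changes was not tested.

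The latency and activation list had 11 tested genes, with 3 higher (27.3%) and 2 lower (18.2%) in CT2A. There were 2 higher (18.2%) in GL261 and in Mut3, and 3 higher (27.3%) in 005. Thbs1, whose product thrombospondin-1 activates latent TGF-beta, rose from 5.85 CPM to 146 in CT2A (log2 fold change 4.64 ± 0.67, adjusted p = 0.000416, edgeR) and to 32.3 in 005 (2.46 ± 0.62, adjusted p = 0.0180). Its 005 values were 34.7, 54.0 and 8.33 CPM, and without replicate 3 the mean was 44.3 CPM and the difference 2.85, while without replicate 2 the mean was 21.5 CPM. Fbn1, which encodes the fibrillin that LTBP proteins bind, rose in CT2A by 3.20 ± 0.54, in GL261 by 3.27 ± 0.54 and in Mut3 by 4.26 ± 0.55. All of these Fbn1 calls were lost on the 1 TPM scale that tested the gene. Fbn2 rose in 005 and in Mut3, by 2.46 ± 0.68 and 2.18 ± 0.68. Itgb8, the beta chain of an integrin that activates latent TGF-beta, fell in CT2A (−1.36 ± 0.47, adjusted p = 0.0309). Leaving out naïve replicate 2 ended the Itgb8 call (−0.97, adjusted p = 0.139) and the 005 calls of Thbs1 (adjusted p = 0.0545) and Fbn2 (adjusted p = 0.0703).

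Of 12 extracellular inhibitors, 5 were lower (41.7%) and 0 higher in CT2A, and 3 lower (25%) and 1 higher (8.33%) in GL261. In 005, 1 was lower and 1 higher (8.33% each), and in Mut3 6 were lower (50%) and 0 higher. The list median was −1.61, −1.23, −0.36 and −1.89 in these 4 tumors. Chrd, the BMP antagonist chordin, stood at 4.95 CPM in naïve brain and at 0.849 to 1.16 CPM as group means in the tumors, and it was called lower in all 4 (adjusted p of 0.0385 or less, edgeR). Chrdl1, a related antagonist, changed by −3.61 ± 0.46 in CT2A, −1.45 ± 0.41 in GL261 and −2.94 ± 0.44 in Mut3. Fst, whose product follistatin binds activin, stood at 3.85 CPM in naïve brain and 0.146 CPM in Mut3, under the floor (adjusted p = 0.00341, edgeR). Fstl3, a follistatin relative, rose in GL261 (3.28 ± 0.97, adjusted p = 0.0267), from naïve values of 1.43, 0 and 1.08 CPM, near the floor. Without naïve replicate 2 the calls of Chrd in GL261, 005 and Mut3 (adjusted p of 0.0767 or more), Chrdl1 in GL261 (−0.95) and Fstl3 (adjusted p = 0.0556) were lost. The Chrd call in 005 was lost with 11 of the 15 samples left out. The 6 astrocyte markers, all above 0, summed to 59.6 to 110 TPM in naïve brain, 10.9 to 20.5 in CT2A, 19.7 to 38.7 in GL261, 13.03 to 79.6 in 005 and 11.6 to 31.4 in Mut3. The 8 neuron markers, all above 0, fell from at least 1360 TPM to 308 TPM or less in CT2A, GL261 and Mut3 and to 40.9 to 991.5 in 005. The part of these cells in the changes of the inhibitors was not tested.

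SMADs and intracellular regulators had 16 tested genes, of which 8 were lower (50%) and 2 higher (12.5%) in Mut3. In CT2A, 3 were lower and 3 higher (18.8% each). In GL261, 3 were lower (18.8%) and 1 higher (6.25%), and in 005 1 was higher (6.25%). Tgif1, a corepressor of SMADs, rose in all 4 tumors, from 3.70 CPM to group means of 107 (005), 99.9 (CT2A), 39.4 (GL261) and 22.0 (Mut3) (adjusted p of 0.00388 or less, edgeR). The 005 values of Tgif1 were 159, 144 and 18.6 CPM, and the mean without replicate 3 was 151. Fkbp1a, which binds the type I receptor, fell by a log2 fold change of −1.69 ± 0.35 in CT2A, −1.34 ± 0.35 in GL261 and −1.83 ± 0.35 in Mut3. Pmepa1 and Skil, both negative regulators induced by TGF-beta, fell in Mut3 beside Smad7, by −1.49 ± 0.41 (adjusted p = 0.00984, edgeR) and −1.06 ± 0.26 (adjusted p = 0.00537). Both calls were lost without naïve replicate 2, at −0.95 (adjusted p = 0.102) and −0.87.

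The 14 tested target genes of TGF-beta and activin had 4 higher (28.6%) and 1 lower (7.14%) in CT2A and 5 higher (35.7%) in GL261. In 005, 4 were higher (28.6%), and in Mut3 2 were higher (14.3%) and 4 lower (28.6%). Timp1, a protease inhibitor, rose from 32.1 CPM to 168 in CT2A, 338 in GL261 and 305 in 005 (adjusted p of 0.00362 or less, edgeR). Its 005 values were 495, 356 and 62.9 CPM, with a mean of 426 without replicate 3. Tgfbi, a matrix protein named for its induction by TGF-beta, rose from 5.15 CPM to 36.7, 41.2 and 77.8 in the same tumors (adjusted p of 0.00762 or less). The 005 mean of Tgfbi was carried by replicate 2, at 172 CPM against 37.1 and 24.0, and was 30.5 CPM without it, below the CT2A and GL261 means. These Timp1 and Tgfbi calls held with each sample left out. Cdkn2b, a cell cycle inhibitor, rose in GL261 (3.96 ± 0.84, adjusted p = 0.00502, edgeR). Its naïve values of 1.02, 0 and 0.811 CPM lay near the floor, so the size of this rise is uncertain. The 8 tested BMP targets had 3 lower (37.5%) and 1 higher (12.5%) in CT2A, and 4 lower (50%) and 1 higher (12.5%) in Mut3. In GL261 and in 005, 1 was higher (12.5%). Id3 rose in all 4 tumors, by 1.45 ± 0.46 in GL261 to 1.86 ± 0.46 in 005. Id2, Smad9 and Id4 were called lower in CT2A and Mut3, Id4 from 16.2 CPM to 1.70 and 0.887. The Id4 mean was 5.65 CPM in GL261 and 7.89 in 005, or 3.22 without 005 replicate 3, without a call. Smad9 stood at 0.622 to 1.21 CPM in GL261 and 0.966 to 2.42 in 005, against 3.24 to 8.36 in naïve brain. It was not called in these tumors. The Id3 calls were lost on all 3 TPM scales, and the Mut3 call of Smad9 without naïve replicate 2 (adjusted p = 0.0524). Of the 58 called differences of the named pathway genes from naïve brain, 41 were lost in at least 1 alternative. On at least 1 TPM scale 35 were lost, and with 1 sample left out 23. Without naïve replicate 2, 14 were lost, and without 005 replicate 3, 0 were. None changed sign in any setting that gave a value. Among the tested genes, Smad7, Smad9, Bambi, Thbs1, Skil, Pmepa1 and Itgb8 stand in 2 or more of these lists.

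The genes whose log2 CPM followed each member most closely over the 15 samples are given as a description, since the samples share group, depth and tissue. For Tgfbr2 they were 5830432E09Rik (Pearson r = 0.968), the complement gene C1qc (0.962) and Itgb2 (0.943), which is in the leukocyte list. For Smad7 they were Cdc42ep2 (0.960), Riox1 (0.951) and Cited2 (0.933), and for Inhba Aldh3a1 (0.949), Tsix (0.947) and Klhl4 (0.921). Ltbp1 was followed most closely by Slc30a4 (0.959), and Tgfb3 by Gm18358 (0.940), Slc38a6 (0.936) and Zfp575 (0.926). The leading genes were weaker for Gdf15 (Plin3, 0.900), Tgfb2 (Gm26683, 0.877), Bmp4 (Rian, 0.865), Tgfbr1 (Gtse1, 0.855) and Tgfb1 (Lsr, 0.848). Among the members themselves, the highest r was 0.735, between Tgfbr2 and Ltbp1, and the lowest was −0.694, between Tgfb3 and Bmp4.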

How the data were processed

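RNA of 12 tumors and 3 naïve brains was sequenced as whole transcriptomes. Per the labels, reads were aligned with STAR to the GENCODE mouse genome, and the submitters' processing notes also list Salmon, DESeq2 1.18.1 and mm10, without saying which made which table. The authors deposited expected counts, which are estimated counts not normalized between samples, and TPM values, which are scaled to gene length and to a common total. For 4644 genes with over 50 counts in every sample, count over TPM was a gene factor times a sample factor (largest log2 residual 9.6e-10), so the tables are not independent. After rounding, expected counts went into edgeR 4.0.16 under R 4.3.3 (filterByExpr, TMM, quasi-likelihood test, 1 mean per group over all 15 samples). TPM was tested with limma 3.58.1 on log2(TPM + 1), and DESeq2 1.42.0 was an alternative.

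Groups and replicate numbers came from the labels. The labels say separate mice, and no 2 samples of a group agreed within sampling noise (chi-square per degree of freedom between 11.3 and 246.5). Gene names and positions came from GENCODE M21, which matched 46201 of 46679 identifiers. The members, lists and tests were chosen with earlier results of these data known. Named genes were the 10 members, up to 4 others per role list (smallest F test p among those called in a tumor, mean of at least 2 CPM in the highest group) and the 3 genes most correlated with each member, of which 1 is not reported here. On counts simulated for CT2A and naïve brain over 16986 genes, the steps called 1.35% of 74 genes changed 2-fold, 43.1% of 65 changed 4-fold and 85.5% of 55 changed 8-fold. A true 2-fold change lies on the fold threshold itself, so its low share is set in part by the call rule. Of the 80 genes called, 4 had not been changed. Changes of 2-fold and of 4-fold can be missed.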

Additional observations from a re-analysis of the deposited data

Results flagged for a closer look

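The members' differences between tumors are listed because the same contrast with naïve brain gave different values in 2 tumors, by edgeR's test of the difference between them (adjusted p under 0.05, n = 3 mice per tumor). Inhba in CT2A exceeded GL261 by 6.42, 005 by 4.55 and Mut3 by 6.52 log2 units. Smad7 exceeded Mut3 by 2.52 in CT2A, 1.81 in GL261 and 2.41 in 005. Tgfbr2 exceeded Mut3 by 1.40 in CT2A, 1.70 in GL261 and 2.46 in 005, and leukocyte markers, at 4.50 to 6.07 TPM, were lowest in Mut3. Tgfb3 in CT2A exceeded GL261 by 1.64, and its value for GL261 minus Mut3 was −1.21. Ltbp1 exceeded Mut3 by 1.73 in CT2A and 2.05 in 005. The Gdf15 value for 005 minus Mut3 was −2.68, from 1.09 to 3.75 estimated counts per 005 tumor. No cause of these differences was tested.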

How the results depend on the processing

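Of the 30 called member differences, 7 were called under every alternative that gave a value: Inhba in CT2A against naïve brain and each tumor, Gdf15 in GL261 and Smad7 in Mut3 against naïve brain, and Tgfbr2 in 005 against Mut3. Of the 70 others, 11 were called in at least 1 alternative. No called difference changed sign, while 17 of the 40 tumor-naïve and 14 of the 60 tumor-tumor differences, none of them called, did so somewhere. The number of members called in CT2A (7) fell to 4 with library size in place of TMM, with no filter on low counts or with at least 10 counts in every sample, and to 1 on each TPM scale. In GL261 (2) it was 1 with at least 10 counts. In 005 (2) it was 0 in a fit of only the samples compared and on log2(TPM + 1) with or without a filter, and 1 on log2(TPM + 0.1). In Mut3 (5) it was 3 with at least 10 counts, in a fit of only the samples compared and on log2(TPM + 0.1), and 2 on log2(TPM + 1) with or without a filter. Calls between tumors (14) were 5, 8 and 5 on log2(TPM + 1), log2(TPM + 0.1) and log2(TPM + 1) without a filter. Pathway genes that are no member, called in CT2A (32), GL261 (19), 005 (11) and Mut3 (35), were 12, 11, 7 and 17 with at least 10 counts. On the same TPM scales in that order they were 13, 18 and 17 in CT2A, 7, 6 and 4 in 005 and 12, 22 and 14 in Mut3, and 1 in 005 in a fit of only the samples compared. The filtered TPM scales shift the median of all genes, and the cause of the other changes was not tested. With each sample left out, member calls ranged from 3 to 7 in CT2A, 1 to 4 in GL261, 1 to 3 in 005 and 3 to 5 in Mut3, calls between tumors from 8 (without GL261 replicate 3) to 15, and pathway genes from 21 to 33, 9 to 29, 4 to 30 and 23 to 36. The highest GL261 and 005 numbers, 29 and 30 genes, came without 005 replicate 3, as did the 4 GL261 members. The shares of all tested genes in these fits are not given here. Without naïve replicate 2, member calls were 5, 2, 2 and 4.

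With the replicate number as a block, member calls were 5, 3, 2 and 5, calls between tumors 13, pathway genes 27, 18, 8 and 30, and members differing among groups 6. Mice that share a number had no common deviation (mean r of −0.0339 over 30 pairs of samples, 1 above 0.1), and the labels name no pairing. Counts per member of 0 to 45 for Tgfb1, Gdf15 and Bmp4 limit what can be detected.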
